A study of Mus musculus with 6 samples.

Results

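Genes of cholesterol and fatty acid synthesis were examined in monocytes from the inflamed CNS of rIFN-β-treated mice, with and without the receptor for type I IFNs. The set held 38 genes chosen by name, of 54232 genes in the deposited files, and 36 of them were among the 11254 genes with enough counts to be tested. They were sorted by their known role into 7 genes of the mevalonate and isoprenoid steps, 11 of the squalene and sterol steps, 5 SREBP transcription factors and regulators, 5 genes of sterol transport, storage and hydroxylation, 2 LXR receptors, and 8 genes of fatty acid synthesis, elongation and desaturation.

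There were 3 libraries of WT monocytes and 3 of Ifnar1-/- monocytes. All came from mixed BM chimera mice, in which irradiated GFP+ recipients had been given WT (CD45.1) and Ifnar1-/- (CD45.2) BM in equal parts, were immunized for EAE 6 to 7 weeks later, and were injected with 30000 IU of rIFN-β each day. EAE models multiple sclerosis in mice, and IFNAR1 is required by the receptor that all type I IFNs share. At disease peak, cells were sorted from the CNS as GFP-CD45+CD11b+Ly6ChiLy6G-, a gate that leaves out cells of the GFP+ recipient. Every library was therefore from rIFN-β-treated mice, none from PBS-treated mice, and the receptor was missing from Ifnar1-/- cells throughout life. Genotype and CD45 donor strain cannot be told apart. The study describes 3 recipient mice and 3 samples of each genotype, so the groups may share mice, but which library came from which mouse is not given in the sources used here, nor is the age of the mice. P-values measure the spread between these samples.

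Total expected counts, the reads that RSEM assigned to genes, were 4531782 to 7321380 in WT and 5442568 to 6916101 in Ifnar1-/- libraries. A count of 3, used as the detection floor, equaled 0.410 to 0.662 CPM, which are counts scaled to library size. Normalized CPM, the main scale below, use the TMM-adjusted library size. They are not divided by gene length, so levels of different genes are compared only in TPM. WT libraries 1, 2, and 3 held 153, 126, and 111 normalized CPM of the targeted gene, Ifnar1, and the Ifnar1-/- libraries 110, 102, and 109. The log2 fold change of 0.28 (WT over Ifnar1-/-) was small (SE 0.15, edgeR adjusted p = 0.360, exact permutation p = 0.1, the smallest that 3 against 3 libraries can give), so its summed count does not check the labels. Which exons the targeted allele lacks is not given in the sources used here.

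Markers of the sorted cells were abundant, with 7 monocyte markers summing to 12225 to 13260 normalized CPM in WT and 14586 to 15329 in Ifnar1-/- libraries, lower in every WT library. Of these markers, 1 of 7 was called (Ly6c2, higher in WT). The single markers did not share the direction of the sum. Ly6c2 and Plac8 were higher and Ccr2 lower in every WT library, while Itgam, Csf1r, Lyz2, and Chil3 overlapped. Oligodendrocytes and astrocytes make much cholesterol in the CNS. Oligodendrocyte markers summed to 32.0 to 50.7 normalized CPM in WT and 20.04 to 23.4 in Ifnar1-/- libraries over 7 genes, of which 3 were at or under the floor in all libraries and Mog and Cldn11 were at 0. The corresponding ranges were 21.04 to 27.8 and 10.8 to 20.4 for 6 astrocyte markers, with 1 at or under the floor, and 19.8 to 45.01 and 9.32 to 18.5 for 8 T cell markers, with none at the floor. Endothelial markers (4 genes, 1 at or under the floor) summed to 12.2 to 39.8 and 7.36 to 10.2, with 1 called, and B cell markers (4 genes, 3 at or under the floor) to 1.49 to 1.71 and 0.305 to 1.10. These 5 sums were higher in every WT library than in any Ifnar1-/- library, but not every marker was. Of the oligodendrocyte markers, only Cnp had groups that did not overlap. The astrocyte marker Gja1 was lower in every WT library (0.854, 1.70, and 1.18 against 5.80, 3.05, and 2.21). Aldh1l1 and Slc1a3 were higher, and Gfap, Slc1a2, and Aqp4 overlapped. The called endothelial gene was Kdr, higher in WT (20.9, 7.01, and 6.12 against 1.22, 1.86, and 0.919), while Pecam1, Cdh5, and Cldn5 overlapped. The sums overlapped between the groups for neutrophil markers (210 to 2031 and 639 to 2266, highest in library 3 of each group), microglial markers (254 to 327 and 294 to 373), dendritic cell markers (17.9 to 28.1 and 13.6 to 21.5), and neuronal markers (at most 0.592). Their part in the differences below was not tested.

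Cells build cholesterol from acetyl-CoA through the mevalonate pathway, which leads to squalene, and through a series of sterol-modifying enzymes. The genes of these steps are switched on together by SREBP transcription factors, which the escort protein SCAP carries out of the endoplasmic reticulum when sterol is scarce, while INSIG proteins and oxysterols such as the product of CH25H hold them back. LXR receptors are activated by oxysterols and drive the opposite program of cholesterol efflux and SREBP-1c-dependent fatty acid synthesis. In macrophages, type I IFN signaling is known to induce Ch25h and to lower sterol synthesis.

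The promoters of 4 of these genes are shown as examples. Hmgcs1 was chosen as the only member with the sterol motif in its window. Idi1 and Cyp51 were taken from the synthesis side, and Npc2 from the transport side. RefSeq windows from 250 bases before to 50 bases after the start site (GRCm38.p6) matched 30 of the 38 genes. Those of Fdps, Fdft1, Sqle, Stard4, Npc1, Scd1, Scd2, and Fads1 were not used here. Capitals mark CCAAT boxes (CCAAT, or ATTGG on the opposite strand), to which the SREBP partner NF-Y binds, and the sterol regulatory element TCACNCCAC. The windows were chr13:119690101-119690400 on the plus strand for Hmgcs1, chr13:8885356-8885655 on the plus strand for Idi1, chr5:4104648-4104947 on the minus strand for Cyp51, and chr12:84773063-84773362 on the minus strand for Npc2.
Hmgcs1: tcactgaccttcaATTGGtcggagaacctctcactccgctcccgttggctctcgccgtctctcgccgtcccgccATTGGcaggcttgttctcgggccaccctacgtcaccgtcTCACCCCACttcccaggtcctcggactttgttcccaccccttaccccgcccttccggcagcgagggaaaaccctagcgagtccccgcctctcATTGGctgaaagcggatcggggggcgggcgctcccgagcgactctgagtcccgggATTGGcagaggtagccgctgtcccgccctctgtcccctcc
Idi1: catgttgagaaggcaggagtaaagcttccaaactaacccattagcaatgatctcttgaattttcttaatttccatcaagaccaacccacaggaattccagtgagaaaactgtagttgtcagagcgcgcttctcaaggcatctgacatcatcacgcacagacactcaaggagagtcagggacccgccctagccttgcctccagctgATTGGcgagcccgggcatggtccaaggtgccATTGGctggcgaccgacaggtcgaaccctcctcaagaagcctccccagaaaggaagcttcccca
Cyp51: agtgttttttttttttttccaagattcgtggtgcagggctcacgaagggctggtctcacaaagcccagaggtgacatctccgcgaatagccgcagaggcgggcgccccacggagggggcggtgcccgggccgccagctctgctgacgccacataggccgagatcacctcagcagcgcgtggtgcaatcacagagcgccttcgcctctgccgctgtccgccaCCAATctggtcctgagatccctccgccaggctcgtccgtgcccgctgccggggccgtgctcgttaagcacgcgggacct
Npc2: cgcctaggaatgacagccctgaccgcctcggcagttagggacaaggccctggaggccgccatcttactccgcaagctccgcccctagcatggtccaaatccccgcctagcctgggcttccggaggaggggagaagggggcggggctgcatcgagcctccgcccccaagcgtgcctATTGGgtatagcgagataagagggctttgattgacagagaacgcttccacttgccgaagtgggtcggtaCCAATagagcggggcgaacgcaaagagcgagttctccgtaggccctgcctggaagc

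Hmgcs1 had 4 CCAAT boxes and 1 sterol regulatory element in its window, Idi1 and Npc2 had 2 CCAAT boxes each, and Cyp51 had 1. CCAAT, searched on both strands, was present in 22 of 30 members (73.3%), against 41.1% of 27025 genes with a window and 42.8% of the 8189 tested genes among them. The exact sterol regulatory element was found in 1 of 30, against 1.44% of all genes and 1.36% of tested genes. The palindromic E-box CACGTG, another sequence that SREBPs can bind, was in 5 of 30 members (16.7%), namely Dhcr7, Hsd17b7, Insig1, Sc5d, and Scap, against 8.09% and 12.4%. The interferon-stimulated response element, searched as GAAA and GAAA with any 2 bases between them, was in 1 of 30 members, Ebp, against 3.99% and 4.24%. The LXR element, searched as 2 copies of AGGTCA with any 4 bases between them, was in 0 of 30 members and in 4 genes in all. No searched motif overlapped another in the sequences printed. These matches describe the letters in the windows and were not tested.

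The question put to these genes was whether monocytes that could sense rIFN-β differed in sterol and fatty acid synthesis genes from monocytes that could not. With a call defined as a change of 1.5-fold or more at an edgeR quasi-likelihood adjusted p up to 0.05, 0 of the 36 genes were called, against 2.13% of all tested genes (1.67% higher and 0.462% lower in WT). DESeq2, which called 3.83% of all genes it could adjust, and limma-voom also called 0. At an unadjusted p under 0.05 there were 7 of 36 genes (19.4%), 3 higher in WT, against 9.69% of all genes, and 4 lower, against 8.14%. Both directions together took 17.8% of all genes, so the share of the 36 was near the background. The groups did not overlap for 4 genes that were higher in WT (11.1%), namely Srebf1, Npc1, Npc2, and Nr1h3, and 11.1% of all tested genes did the same. They did not overlap for 5 genes that were lower in WT (13.9%), namely Hmgcs1, Fdft1, Cyp51, Stard4, and Scd2, against 12.2% of all genes.

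Direction was less even. The fitted log2 fold change, WT over Ifnar1-/-, was below 0 for 25 of the 36 genes (69.4%), against 51.8% of all tested genes. It was above 0 for 11, against 48.2%. The number below 0 was 23 to 28 without single libraries and 29 with offsets for GC content and length. All these genes were measured in the same 6 libraries, so their signs are not independent, and the share was not tested. The median log2 fold change was -0.21 beside -0.014 over all genes (-0.11 without Ifnar1-/- library 2 and -0.14 without WT library 1), and the values ran from -0.74 (Stard4) to 0.75 (Nr1h3). The 95% interval lay within a 2-fold change in either direction for 28 of 36 genes, and SEs were from 0.14 to 0.65 with a median of 0.19. In bulk samples such as these, fewer cells of a type and less RNA per cell cannot be told apart.

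**Figure D1:**
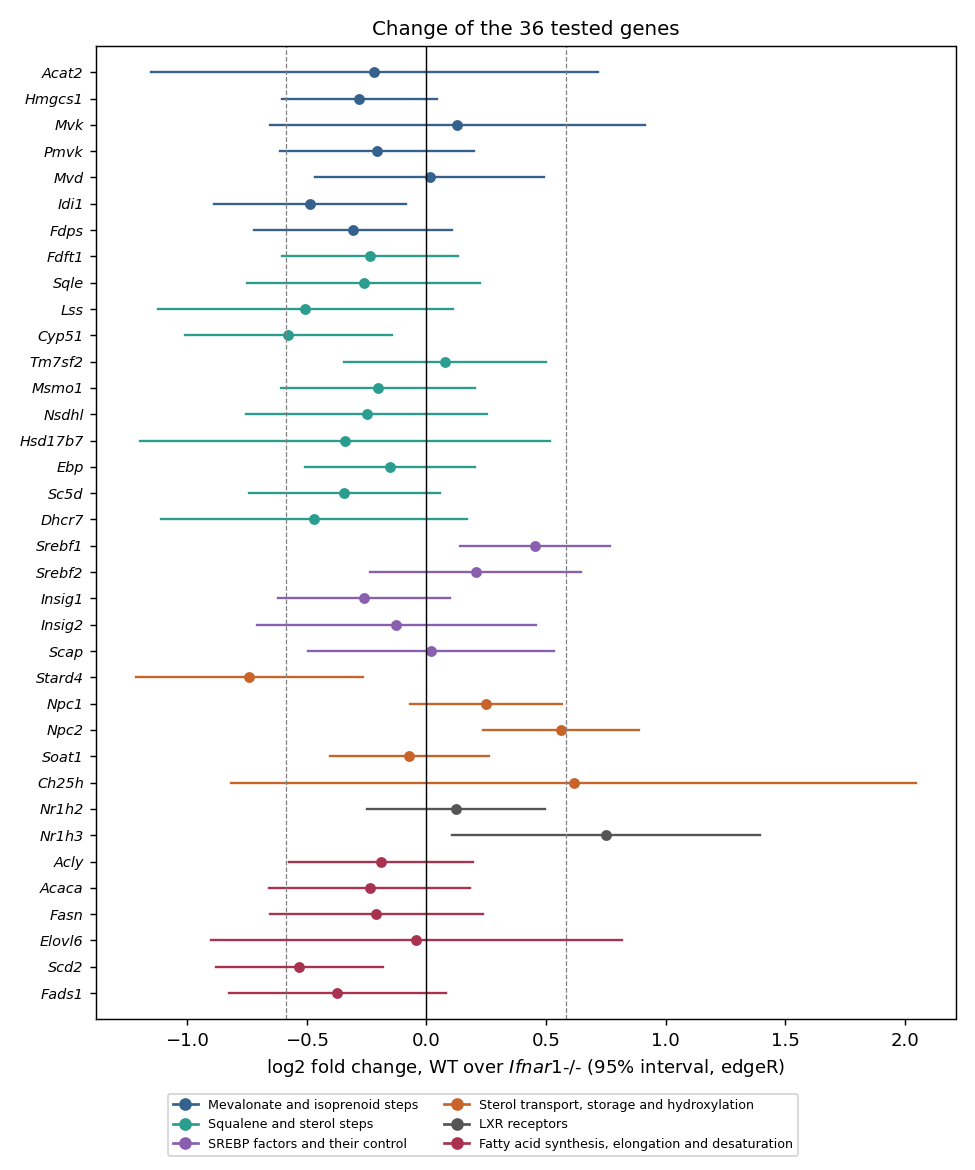
Log2 fold change (WT over Ifnar1-/-) of the 36 tested genes, colored by role, with points for the edgeR estimate and bars for its 95% interval. Dashed lines mark a 1.5-fold change, and 15 of the 18 genes of the mevalonate and sterol steps (top, blue and green) lie left of 0.

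The mevalonate and isoprenoid steps had log2 fold changes below 0 for 5 of 7 genes, with a median of -0.22, and 0 were called. This median was -0.33, -0.12, and -0.096 without Ifnar1-/- library 1, 2, and 3. Idi1, at chromosome 13, 8885501 to 8892451 on the plus strand (GRCm38), encodes the isomerase that makes the second isoprenoid building block. WT libraries 1 to 3 held 19.6, 23.0, and 18.8 normalized CPM, and Ifnar1-/- libraries 32.1, 30.8, and 22.8. Libraries 1 and 2 of the Ifnar1-/- group were highest, and library 3 lay just under WT library 2, so that the groups overlapped. This gave a log2 fold change of -0.49 (SE 0.18, 95% interval -0.89 to -0.08, edgeR adjusted p = 0.197). Its counts were not whole in all 6 libraries, which shows that RSEM shared some of its reads with other genes, and Gm48574 overlaps it on the opposite strand.

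Pmvk, the phosphomevalonate kinase, had the highest mean TPM of these 7 genes (17.8 ± 2.86 in WT and 22.1 ± 4.57 in Ifnar1-/- monocytes, SD, n = 3). Its normalized CPM were 19.2, 19.8, and 17.6 against 17.4, 23.4, and 24.6, and the lowest and highest values were both in Ifnar1-/- libraries (log2 fold change -0.21, interval -0.61 to 0.20). Hmgcs1, which makes HMG-CoA at the entry of the pathway, was lower in every WT library, with 33.4, 31.9, and 29.8 against 39.9, 42.2, and 33.5 normalized CPM. The gap between the closest libraries was small, and the log2 fold change was -0.28 (interval -0.60 to 0.05, edgeR adjusted p = 0.348). Fdps, the farnesyl diphosphate synthase, and Acat2, which joins acetyl-CoA units, had log2 fold changes of -0.31 and -0.22 with overlapping groups. Mvk and Mvd, which act on mevalonate and its diphosphate, were at 0.13 (interval -0.65 to 0.91) and 0.01 (-0.47 to 0.49). The intervals of Acat2 (-1.15 to 0.72) and Mvk were the widest of this role, at 1.85 to 8.69 normalized CPM.

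The squalene and sterol steps had 10 of 11 genes below 0, with a median of -0.26 (-0.17 without Ifnar1-/- library 2) and 0 called. Cyp51, at chromosome 5, 4081145 to 4104746 on the minus strand, encodes the sterol demethylase that removes a methyl group from lanosterol. Normalized CPM of Cyp51 were 21.1, 24.02, and 17.6 in WT and 36.04, 32.9, and 24.3 in Ifnar1-/- libraries. All 3 WT libraries were below all Ifnar1-/- libraries, but WT library 2 and Ifnar1-/- library 3 nearly touched. The log2 fold change was -0.58, or 1.49-fold higher in Ifnar1-/- monocytes (SE 0.19, interval -1.01 to -0.15, edgeR adjusted p = 0.162, exact permutation p = 0.1). Akap9 overlaps Cyp51 on the opposite strand, and whether the counting used strand is not given in the sources used here.

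Msmo1, a sterol methyl oxidase, had the highest mean TPM of the 11 genes (32.5 ± 12.5 in WT and 33.4 ± 0.327 in Ifnar1-/- monocytes, SD, n = 3). It had 30.7, 50.8, and 39.3 normalized CPM in WT and 49.3, 43.5, and 45.4 in Ifnar1-/- libraries, and WT library 2 was the highest of the 6 (log2 fold change -0.20, interval -0.61 to 0.20). Fdft1, the squalene synthase that commits farnesyl diphosphate to sterols, was lower in every WT library, at 21.3, 20.6, and 16.8 against 22.6, 24.6, and 22.1 (log2 fold change -0.23, interval -0.60 to 0.13, edgeR adjusted p = 0.498). It overlaps Ctsb on the opposite strand. The remaining genes had overlapping groups. Lss, the lanosterol synthase, had a log2 fold change of -0.51 (interval -1.12 to 0.11), and Dhcr7, which catalyzes the last step to cholesterol in one branch, of -0.47 (-1.11 to 0.17). Sqle (squalene epoxidase), Nsdhl and Hsd17b7 (sterol dehydrogenation and reduction), Sc5d (a desaturase), and Ebp (a sterol isomerase) had values from -0.34 to -0.15. Tm7sf2, a sterol reductase, was the only 1 of the 11 above 0, at 0.08 (interval -0.34 to 0.50), and it overlaps Vps51 on the same strand, with counts that were not whole in all 6 libraries.

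Summed over the 18 genes of both arms, normalized CPM of synthesis enzymes were 293, 334, and 288 in WT and 364, 391, and 339 in Ifnar1-/- libraries. The highest WT sum lay just under the lowest Ifnar1-/- sum, with means of 305 ± 25.5 and 365 ± 26.1 (SD, n = 3). The median log2 fold change of the 18 genes was -0.26, with 15 of 18 below 0 (83.3%), and -0.14 without Ifnar1-/- library 2. The mevalonate sum alone was lower in every WT library (109, 114, and 113 against 128, 151, and 124), while the sterol sum overlapped (184, 220, and 175 against 236, 239, and 215). On the deposited TPM scale all of these sums overlapped. Over the 18 genes the TPM sums were 122, 213, and 185 in WT and 196, 247, and 184 in Ifnar1-/- libraries. WT libraries 2 and 3 lay above Ifnar1-/- library 3, and WT library 1 was lowest. WT library 1 gave 38.7% of its TPM to short non-coding RNAs annotated as misc_RNA, against 14.9% to 19.96% in the other libraries. Protein-coding genes held 34.8%, 51.5%, and 49.6% of TPM in WT libraries 1 to 3 and 43.2%, 51.6%, and 43.4% in Ifnar1-/- libraries. The part of these shares in the overlap was not tested.

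**Figure D2:**
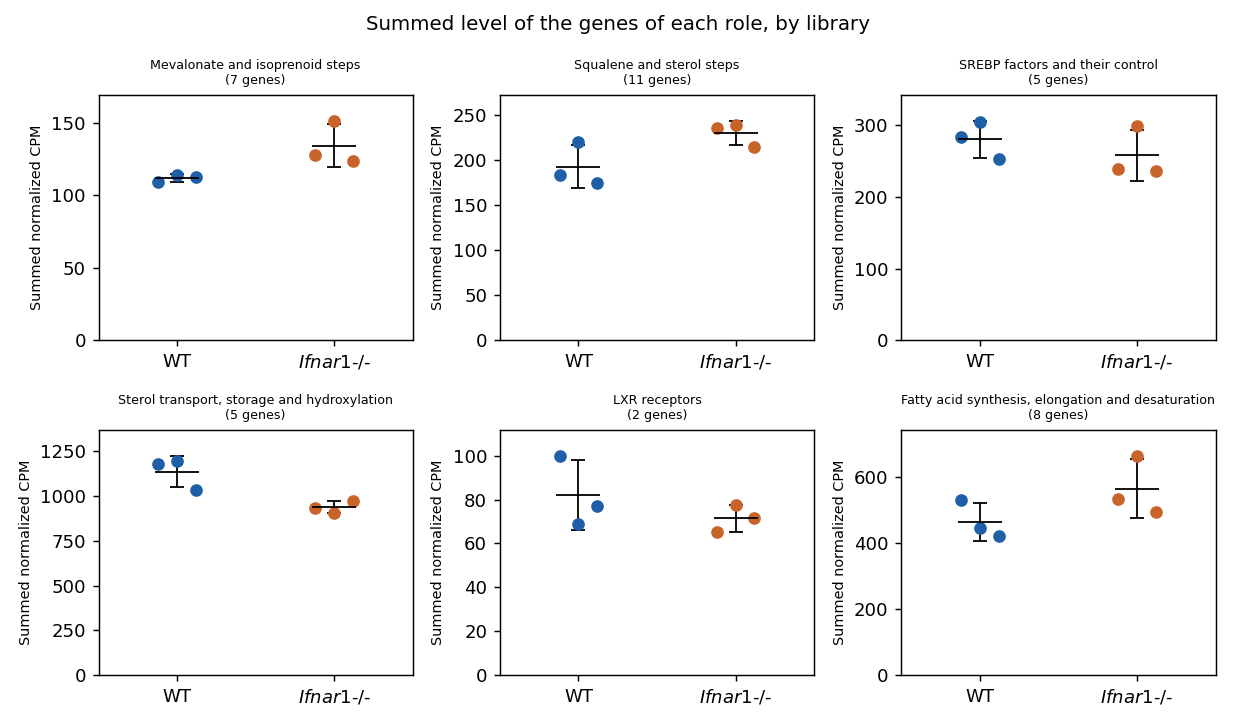
Summed normalized CPM of the genes of each role in the 6 libraries, with points for libraries, long bars for means and whiskers for SD (n = 3 per group). The sums of mevalonate genes are lower in every WT library (109 to 114 against 124 to 151) and those of transport genes are higher (1035 to 1196 against 904 to 972), while the other 4 roles overlap.

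The SREBP genes and their regulators did not share a direction: 3 of 5 were above 0, the median was 0.020, and 0 were called. Srebf1, at chromosome 11, 60199089 to 60222581 on the minus strand, encodes SREBP-1, the factor that favors fatty acid genes and is itself a target of LXR. Levels of 71.0, 63.8, and 59.4 normalized CPM were measured in WT and 42.3, 51.7, and 48.0 in Ifnar1-/- libraries. Every WT library was above every Ifnar1-/- library, with a log2 fold change of 0.45, or 1.37-fold (SE 0.14, interval 0.14 to 0.77, edgeR adjusted p = 0.139, exact permutation p = 0.1). With offsets for GC content and length the log2 fold change was 0.12 (edgeR adjusted p = 0.728), so its size depends on that setting. Rai1 overlaps Srebf1 on the opposite strand.

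Srebf2 encodes SREBP-2, the main driver of sterol synthesis genes, and had the highest mean TPM of the 5 genes (31.6 ± 7.67 in WT and 29.6 ± 10.0 in Ifnar1-/- monocytes, SD, n = 3). Its normalized CPM were 130, 137, and 105 against 92.4, 141, and 89.2, with Ifnar1-/- library 2 highest of all 6. The log2 fold change was 0.21 (interval -0.23 to 0.64), and -0.09 with the GC and length offsets, so its direction depended on that setting. Insig1 and Insig2, which retain SCAP in the endoplasmic reticulum, had log2 fold changes of -0.26 (interval -0.62 to 0.10) and -0.13 (-0.71 to 0.46). Insig1, itself an SREBP target, had 50.8, 72.3, and 55.1 normalized CPM in WT and 77.1, 66.1, and 69.5 in Ifnar1-/- libraries. Scap was at 0.02 (interval -0.49 to 0.53). The median of the 5 genes was 0.35 without Ifnar1-/- library 2 and 0.11 without WT library 2, and it was below 0 without WT library 3 or Ifnar1-/- library 1 or 3.

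Genes of sterol transport, storage and hydroxylation held both extremes, with 3 of 5 above 0, a median of 0.25, and 0 called. Npc2, at chromosome 12, 84754562 to 84773152 on the minus strand, encodes the protein that hands cholesterol inside lysosomes to NPC1. It was measured at 675, 624, and 556 normalized CPM in WT and 417, 401, and 437 in Ifnar1-/- libraries, a clear gap between the groups. In edgeR the log2 fold change was 0.56, or 1.48-fold (SE 0.15, interval 0.24 to 0.89), and its edgeR adjusted p of 0.0874 was the smallest of the 36 genes. DESeq2 gave an adjusted p of 0.00380 at a log2 fold change of 0.58, past the p threshold but under the fold threshold. Npc1, which moves this cholesterol across the lysosomal membrane, was also higher in every WT library, with 160, 158, and 146 against 113, 141, and 137 (log2 fold change 0.25, interval -0.07 to 0.57, edgeR adjusted p = 0.397).

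Stard4, at chromosome 18, 33199355 to 33213862 on the minus strand, encodes a sterol carrier of the cytosol that is itself an SREBP target, and it had the lowest log2 fold change of the set. Normalized CPM of Stard4 were 10.1, 17.003, and 11.5 in WT and 21.8, 20.3, and 21.7 in Ifnar1-/- libraries. The Ifnar1-/- libraries were close together and all above the WT libraries, of which library 2 was the nearest. The log2 fold change was -0.74, or 1.67-fold higher in Ifnar1-/- monocytes (SE 0.21, interval -1.21 to -0.27, edgeR adjusted p = 0.118, exact permutation p = 0.1). Without WT library 2 it was -0.97 and passed both thresholds (edgeR adjusted p = 0.0456), and with no filter on low counts it also passed (-0.74, edgeR adjusted p = 0.0283). Over all its alternatives the adjusted p ranged from 0.0283 to 0.339.

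Soat1, the enzyme that esterifies cholesterol for storage in droplets, was the most abundant of the 38 genes in TPM (296 ± 36.6 in WT and 304 ± 30.6 in Ifnar1-/- monocytes, SD, n = 3). Its normalized CPM of 330, 393, and 319 against 383, 337, and 375 overlapped (log2 fold change -0.07, interval -0.40 to 0.26). Ch25h makes an oxysterol that blocks SREBP processing and is known as an IFN-induced gene. Its counts were low, at 16, 18, and 9 in WT and 4, 22, and 4 in Ifnar1-/- libraries, beside a floor of 3. It had 2.28, 3.83, and 1.78 normalized CPM in WT and 0.611, 3.73, and 0.736 in Ifnar1-/- libraries. Library 2 of the Ifnar1-/- group was as high as the WT libraries. The interval of the log2 fold change of 0.62 ran from -0.81 to 2.05 (edgeR adjusted p = 0.662). Over all its alternatives the log2 fold change of Ch25h stayed above 0, from 0.21 to 1.94. The adjusted p ranged from 0.159 to 0.934, and Ch25h was not called under any of them. The 5 genes together summed to 1178, 1196, and 1035 normalized CPM in WT and 935, 904, and 972 in Ifnar1-/- libraries, a sum carried mostly by Npc2 and Soat1.

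**Figure D3:**
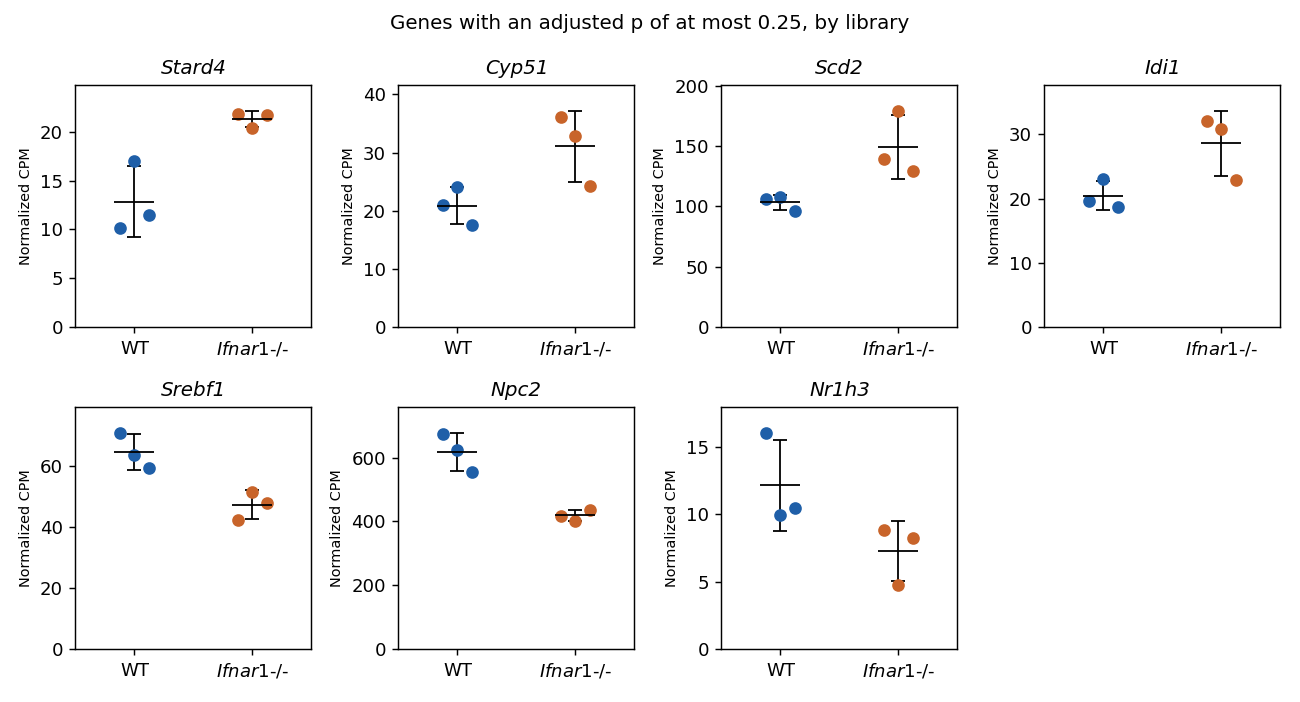
Normalized CPM (counts per TMM-adjusted library size) of the 7 genes whose adjusted p did not exceed 0.25, with 1 point per library, long bars for means and whiskers for SD (n = 3). Stard4, Cyp51, and Scd2 are lower and Srebf1, Npc2, and Nr1h3 higher in every WT library, while the groups overlap for Idi1 at 22.8 and 23.0.

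Both LXR receptors had values above 0, and 0 were called. Their median was 0.44, and 0.24 without WT library 1. Nr1h3, at chromosome 2, 91184061 to 91202834 on the minus strand, encodes LXRα, and its normalized CPM were 16.1, 9.99, and 10.5 in WT and 8.86, 4.74, and 8.28 in Ifnar1-/- libraries. The groups did not overlap, although 2 WT libraries lay close to the upper Ifnar1-/- libraries. The log2 fold change was the highest of the set at 0.75, or 1.68-fold (SE 0.29, interval 0.11 to 1.39, edgeR adjusted p = 0.214, exact permutation p = 0.1). It was 0.49 without WT library 1 (edgeR adjusted p = 0.557) and 0.51 with GC and length offsets, and Gm13783 overlaps the gene on the same strand. Nr1h2, which encodes LXRβ, was more abundant in TPM (60.9 ± 17.03 in WT and 59.1 ± 8.37 in Ifnar1-/- monocytes, against 7.13 ± 0.456 and 4.07 ± 0.860 for Nr1h3, SD, n = 3). It had 83.8, 58.9, and 66.7 normalized CPM in WT and 56.5, 72.7, and 63.3 in Ifnar1-/- libraries, which overlapped (log2 fold change 0.13, interval -0.25 to 0.50).

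All 6 tested genes of fatty acid synthesis, elongation and desaturation had log2 fold changes below 0, with a median of -0.22 and 0 called. Scd2, at chromosome 19, 44293674 to 44306864 on the plus strand, encodes a desaturase that makes monounsaturated fatty acids. Normalized CPM of Scd2 were 106, 108, and 96.3 in WT and 139, 179, and 130 in Ifnar1-/- libraries, without overlap. The log2 fold change was -0.53, or 1.44-fold higher in Ifnar1-/- monocytes (SE 0.16, interval -0.88 to -0.18, edgeR adjusted p = 0.126, exact permutation p = 0.1). With GC and length offsets it was -0.64 and passed both thresholds (edgeR adjusted p = 0.0475). Over all its alternatives the adjusted p ranged from 0.0177 to 0.300. Scd2 counts were not whole in 3 libraries, so some reads were shared with similar genes. These Scd2 counts were close to whole, at 745.99 in WT library 1 and 909.99 and 1056.99 in Ifnar1-/- libraries 1 and 2. Its paralog Scd1 was at or near the floor, with counts of 8, 2, and 4 in WT and 6, 4, and 3 in Ifnar1-/- libraries, and was not tested.

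Acly, which supplies cytosolic acetyl-CoA, had the highest mean TPM of this role (72.8 ± 7.06 in WT and 81.9 ± 19.5 in Ifnar1-/- monocytes, SD, n = 3). Its normalized CPM were 337, 261, and 236 against 308, 359, and 284, and the groups overlapped (log2 fold change -0.19, interval -0.58 to 0.20). Acaca and Fasn, the carboxylase and the synthase of the pathway, had log2 fold changes of -0.24 (interval -0.66 to 0.18) and -0.21 (-0.65 to 0.24). Fads1, a desaturase of polyunsaturated fatty acids, was at -0.37 (-0.83 to 0.08), and the elongase Elovl6, at 1.70 to 3.73 normalized CPM, at -0.04 (-0.90 to 0.82). Fads2, a desaturase with counts of 8, 4, and 2 in WT and 0, 6, and 2 in Ifnar1-/- libraries, was not tested. Ifnar1-/- library 2 held the highest value of all libraries for each of the 6 tested genes, and without it the median was -0.046 (-0.34 without Ifnar1-/- library 3). The summed normalized CPM of the 8 genes overlapped between the groups, at 529, 445, and 420 against 534, 664, and 494.

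**Figure D4:**
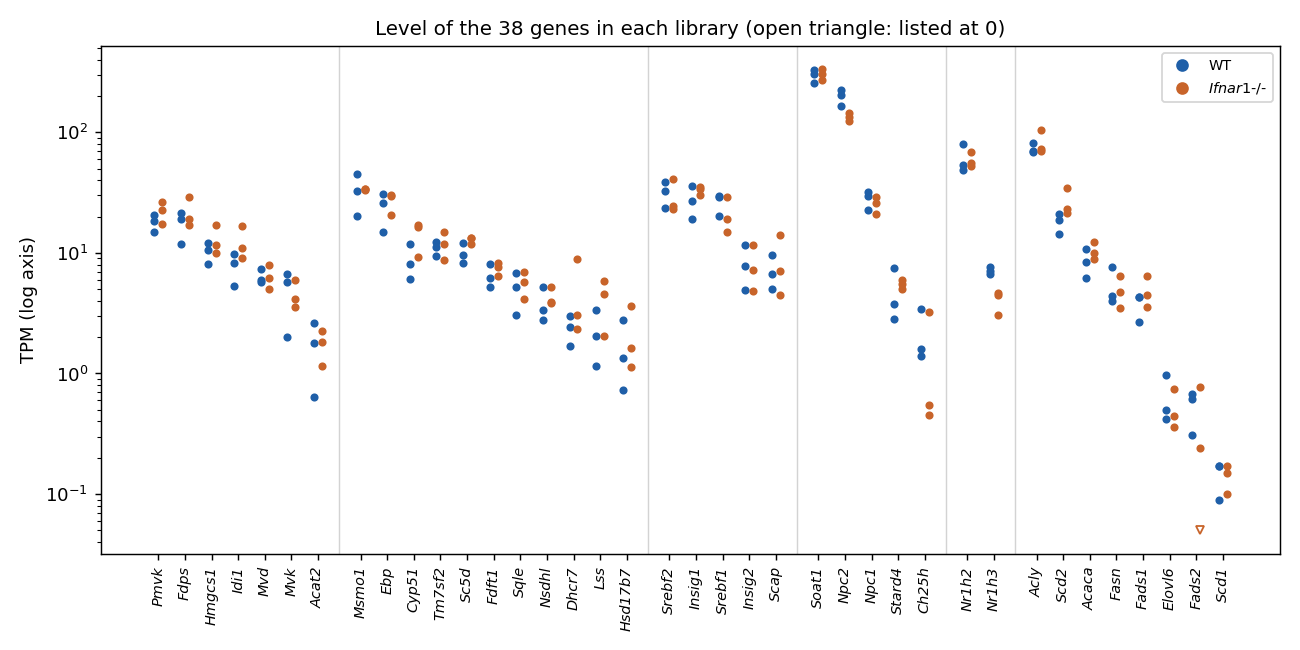
TPM (log axis) of the 38 genes in each library, grouped by role and ordered by mean TPM within a role, with 1 point per library and an open triangle for a value listed at 0. Soat1 and Npc2 are highest, most enzymes of the mevalonate and sterol steps lie between 1 and 40 TPM, and Scd1, Fads2, and Elovl6 are lowest.

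Compared per length, Soat1 and Npc2 (197 ± 30.3 TPM in WT and 134 ± 9.27 in Ifnar1-/- monocytes, SD, n = 3) headed the set, above every enzyme of sterol synthesis. Enzymes of the sterol and mevalonate steps had mean TPM over all 6 libraries from 1.71 (Acat2) to 33.0 (Msmo1). At the lower end were Elovl6 at 0.573, Fads2 at 0.433, and Scd1 at 0.142 TPM. The share of TPM on protein-coding genes was uneven, at 34.8% in WT library 1 and 43.2% to 51.6% in the others. TPM are therefore used here for levels between genes and not for the comparison of groups. The effect of these shares on single genes was not tested.

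A second list of 53 genes of the same pathways, which are not among the 38, was described beside them. Of these, 52 were matched in the files and 43 were tested, with 1 called higher and 0 called lower (2 and 0 with DESeq2), beside 1.67% and 0.462% of all tested genes. At an unadjusted p under 0.05 there were 5 genes higher and 2 lower in WT, or 16.3% beside 17.8% of all genes. The groups did not overlap for 6 genes that were higher (14.0%, beside 11.1% of all genes) and 7 that were lower (16.3%, beside 12.2%). These shares were near the background. The median log2 fold change was -0.04, with 22 of 43 below 0. By role, 6 of 7 further mevalonate and isoprenoid genes were below 0 (median -0.25), as were 3 of 3 sterol genes (median -0.24), and 7 of 9 SREBP regulators (median -0.10). Of the further sterol transport and hydrolysis genes, 9 of 10 were above 0 (median 0.35), as were both RXR genes tested (median 0.20), which encode the partners of LXR. The further fatty acid genes were split, with 5 of 12 below 0 and a median of 0.10, whereas all 6 tested fatty acid genes of the set were below 0. The mevalonate, sterol, transport, and LXR roles had medians of the same sign in both lists. Those of the SREBP role (0.020 and -0.10) and the fatty acid role (-0.22 and 0.10) differed in sign. Both lists were measured in the same 6 libraries and chosen with earlier results of these data known. The second list is therefore not independent support for the first, and the signs were not tested.

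The called gene was Stard3, at chromosome 11, 98358368 to 98381112 on the plus strand, which encodes a sterol carrier anchored in late endosomes. Normalized CPM of Stard3 were 52.5, 48.5, and 40.5 in WT and 25.8, 26.9, and 32.4 in Ifnar1-/- libraries, without overlap. It was 1.67-fold higher in WT (log2 fold change 0.74, SE 0.16, edgeR adjusted p = 0.0432). The call was lost when any 1 of the 6 libraries was left out, with log2 fold changes from 0.66 to 0.86 and adjusted p from 0.0525 to 0.172. It was also lost with limma-voom (adjusted p = 0.0501), with GC and length offsets (0.51, adjusted p = 0.128), and in the fit with a replicate block (0.73, edgeR adjusted p = 0.0845; DESeq2 adjusted p = 0.118).

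Other transport genes, named after their values were seen, also had higher values in WT without being called in the main edgeR fit. Nceh1, which releases cholesterol from its esters, had 88.1, 91.4, and 96.5 normalized CPM in WT and 52.4, 51.2, and 71.4 in Ifnar1-/- libraries (log2 fold change 0.66, SE 0.16, edgeR adjusted p = 0.0700), and DESeq2 called it (adjusted p = 0.0132). Abcg1, an exporter of cholesterol and an LXR target, had 239, 193, and 167 against 138, 137, and 136 (log2 fold change 0.54, SE 0.16, edgeR adjusted p = 0.120), and its value was 0.33 with GC and length offsets. In both, every WT library was above every Ifnar1-/- library. Cyp27a1, a sterol hydroxylase, and Lipa, the lysosomal lipase, also had groups that did not overlap, with log2 fold changes of 0.66 and 0.30 (edgeR adjusted p = 0.214 and 0.308). On the other side, Acat1, Ggps1, Nus1, and Fntb of the mevalonate and isoprenoid list were lower in every WT library, with log2 fold changes from -0.64 to -0.25 and none called. Groups without overlap were 14.0% (higher) and 16.3% (lower) of the tested genes of this second list, near the 11.1% and 12.2% of all tested genes.

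**Figure D5:**
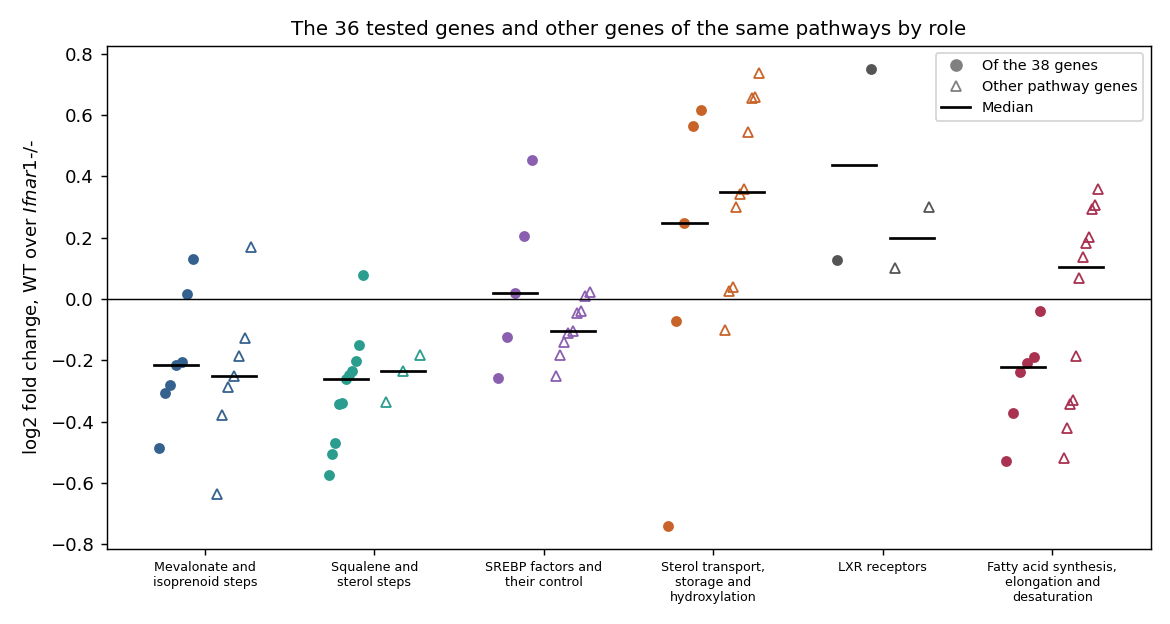
Log2 fold change (WT over Ifnar1-/-) of the 36 tested genes (filled circles) and of 43 other tested genes of the same pathways (open triangles), by role, with a bar for each median. Mevalonate and sterol genes of both lists lie mostly below 0 (medians -0.22 to -0.26) and transport genes mostly above 0 (medians 0.25 and 0.35), with Stard4 at -0.74 the lowest point.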

How the data were processed

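Gene expression was measured by RNA-seq in 3 WT and 3 Ifnar1-/- samples of sorted CNS monocytes, grouped by the deposited labels. The authors sequenced paired-end libraries and deposited RSEM expected counts (estimated, not normalized), TPM (scaled by the authors per gene length and library), FPKM (not used), and gene lengths. The submitters' processing notes list RSEM 1.2.31, STAR 2.6.0c, and GRCm38. The labels and the methods name different stranded total RNA kits, and no counting strand is given in the sources used here. Gene names came from GENCODE M21, which matched 54165 of 54232 identifiers.

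Expected counts were rounded and tested in edgeR 4.0.16 (R 4.3.3) with TMM normalization, filterByExpr (minimum count of 10), the quasi-likelihood test, and Benjamini-Hochberg adjustment over 11254 genes, without a block. This is the count test used in place of the authors' DESeq2, and the fit was tested on simulated data. Genes were called at a fold change of 1.5 or more and an adjusted p up to 0.05. Intervals are 95% intervals, and floors cover counting error only. Permutation tests were exact and two-sided, on log2(normalized CPM + 0.5). Alternatives were DESeq2 1.42.0, limma-voom (limma 3.58.1), RLE normalization, a stricter filter (10 counts in each library) or none, a fit without mitochondrial and ribosomal RNA genes, calls by adjusted p alone, a replicate block (also with DESeq2), GC and length offsets, and leaving out each library. TPM rescaled to protein-coding genes was added after seeing the data.

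All 38 genes were accounted for by name. Values per library were given for genes called, with an adjusted p up to 0.25, without overlap at a fold of at least 1.5, or with the highest mean TPM of a role, and of the second list for those called. Other names were chosen after seeing their values. The members, gene lists, and markers were chosen with earlier results of these data known.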

Additional observations from a re-analysis of the deposited data

How the results depend on the processing

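Over all genes, calls were 188 higher and 52 lower in WT in edgeR, 314 and 105 with DESeq2, 610 and 262 with no filter on low counts, and 32 lower with GC and length offsets. Without single libraries they ranged from 110 to 204 and from 7 to 41. Of the 36 genes, 0 were called higher under any alternative, and 1 was called lower with no filter (Stard4) and with GC and length offsets (Scd2). Without single libraries the number was 0 to 1, with Stard4 called without WT library 2. Stard3 and Nceh1 made 2 calls among other pathway genes with DESeq2 and with no filter, against 0 with limma-voom, the GC and length offsets, or any library left out. The transport median was 0.088 with at least 10 counts in every library, which removes Ch25h, and the fatty acid median was -0.46 with the offsets. The SREBP median ranged from -0.036 to 0.35 without single libraries. Groups without overlap numbered 2 higher and 1 lower in deposited TPM. The lower number was 3 with RLE normalization and 3 in TPM rescaled to protein-coding genes. The causes were not tested.

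The replicate numbers in the labels were not shown to pair the libraries: deviations of same-numbered libraries correlated at 0.0974, 0.0213, and 0.232, and every library except Ifnar1-/- library 2 correlated best with its own number. With the replicate block, 182 genes were higher and 38 lower, and 0 other pathway genes were called, as with the block in DESeq2. With the block and the offsets 1 of the 36 genes (Scd2) was called lower, 1 other pathway gene (Nceh1) was called higher, and the fatty acid median was -0.45.

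Direction held under every alternative for 25 of the 36 genes and turned for 11. With GC and length offsets, and with these and the block, log2 fold changes were -0.053 and -0.067 for Mvk, -0.27 and -0.27 for Mvd, -0.13 and -0.13 for Tm7sf2, -0.086 and -0.083 for Srebf2, 0.076 and 0.075 for Insig2, -0.22 and -0.19 for Scap, 0.13 and 0.13 for Soat1, and -0.088 and -0.095 for Nr1h2. Without single libraries the values ranged from -0.57 to 0.088 for Acat2, -0.12 to 0.43 for Mvk, -0.096 to 0.14 for Mvd, -0.043 to 0.24 for Tm7sf2, -0.30 to 0.016 for Insig2, -0.15 to 0.35 for Scap, -0.16 to 0.0091 for Soat1, -0.022 to 0.25 for Nr1h2, -0.31 to 0.069 for Fasn, and -0.18 to 0.22 for Elovl6. Across genes, the log2 fold change correlated with GC content (Spearman rho 0.379 over 11242 genes, which are not independent). With 3 libraries a group, depth limits Ch25h, Acat2, Mvk, Hsd17b7, and Elovl6 most.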
